A study of Mus musculus with 6 samples.

Results

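The olfactory receptor (OR) genes Olfr828 to Olfr870 lie in a row on mouse chromosome 9. The 28 genes described here were chosen by name alone, as every gene in the count tables whose whole name is Olfr and a number, from Olfr828 to Olfr870. They are 28 of the 1086 intact ORs and of 24661 genes in all. Pseudogenes, whose names end in -ps, were left out. RNA-Seq was done on olfactory mucosa from 3 mice of the wild-type and 3 of the RTP1,2DKO genotype, all C57BL/6 and at postnatal day 21. RTP1,2DKO mice lack both Rtp1 and Rtp2, whose coding regions were replaced in hybrid 129/B6 embryonic stem cells before backcrossing to C57BL/6. According to the methods, the mice were littermates matched for sex, and the mucosa was taken whole with its surrounding tissue. The comparison asks how the loss of the transporting proteins changes the representation of these ORs.

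ORs are G protein-coupled receptors of the olfactory sensory neurons (OSNs). Each mature OSN transcribes a single OR gene, usually from one allele, so that the RNA of an OR in whole tissue depends on the number of neurons that chose it and on the RNA each of them holds. RTP1 and RTP2 are membrane proteins of OSNs that help ORs reach the cell surface. In these bulk samples, fewer neurons expressing an OR and less RNA per neuron cannot be told apart.

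All 28 genes are annotated as protein coding in GENCODE M21, at chr9:18814728-20174057 of GRCm38. The cluster spans 1359 kb, with 16 genes on the forward and 12 on the reverse strand, and the names follow the order of the genes. The gap between neighbouring genes had a median of 31.4 kb and ranged from 9.7 to 139.0 kb. The encoded proteins have 305 to 331 residues. Over the 378 pairs of them, identity ranged from 45.3% to 94.6% with a median of 56.7%, and 11 pairs reached 80%. Thus the row holds both distant relatives and close copies.

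A short motif at the inner end of the third transmembrane segment separates the genes into 3 kinds. The motif opens with aspartate and arginine, takes part in coupling receptors of this class to their G protein, and ends in tyrosine (DRY) in 16 genes, in phenylalanine (DRF) in 8 and in tryptophan (DRW) in 4. The 4 DRW genes, Olfr857, Olfr859, Olfr860 and Olfr862, are neighbours, and 5 of the 8 DRF genes, Olfr866 to Olfr870, close the row. The following stretches of 30 coding bases, read 5′ to 3′ on the coding strand, are shown because the results turn on these genes, and capitals mark the motif's 3 codons.
Olfr835: atggcctatGACCGATATgttgctatttgt
Olfr849: atggcctatGACCGCTATgttgctatttgt
Olfr857: atggcctatGACCGATGGgtagctatttgt
Olfr859: atggcgtatGACAGATGGgtggccatttgt
Olfr836: atggcctatGACCGCTTCatagccatttgt
Olfr867: atggcttatGATCGCTTTgtagccatctgt
Olfr868: atggcatatGACAGGTTTgtggccatctgt
Olfr869: atggcctatGATAGGTTTgtagccatctgt
Olfr870: atggcctatGACCGATTTgtggccatctgt
The last codon of the motif is TAT in the printed DRY genes, TGG in the DRW genes and TTT or TTC in the DRF genes. In GRCm38 the stretch of Olfr835 lies at chr9:19035476-19035505 on the forward strand, that of Olfr859 at chr9:19808671-19808700 on the forward strand and that of Olfr867 at chr9:20055081-20055110 on the reverse strand, each inside the coding exon.

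The labels and the markers of the tissue were checked first. Rtp1 ranged from 13542.6 to 25300.9 normalized counts in the wild-type and from 85.5 to 108.8 in RTP1,2DKO, and Rtp2 had 7156.7 to 9510.5 in the wild-type and 26.2 to 58.0 in RTP1,2DKO. Total counts ranged from 31125410 to 41636996 a mouse. Of 11 genes of mature OSNs and odor transduction, 10 fell (edgeR's quasi-likelihood test with Benjamini-Hochberg adjustment), where 3.15% of all 22152 genes tested fell and 0.46% rose. Their median log2 fold change was -1.05, and their summed level ranged from 178311 to 205433 normalized counts in the wild-type and from 92114 to 99486 in RTP1,2DKO. Of 8 genes of immature OSNs, Gap43 and Gng8 rose and none fell, and of 14 genes tied to OR gene choice, none passed the threshold in either direction. Of 10 genes of OR transport, Rtp1, Rtp2 and Reep1 fell. None of the genes on the lists of mature and immature OSNs had 0 counts in any mouse. Among markers of other cell types, none of 6 sustentacular and gland, 6 basal, 4 respiratory, 5 immune and 4 glial genes passed, and 1 of 5 blood genes, the globin gene Hbb-bt, rose. The summed blood markers ranged from 57894 to 94381 normalized counts in the wild-type and from 92242 to 169783 in RTP1,2DKO. The part of any of these differences in the results on the 28 ORs was not tested.

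The levels of the 28 genes ranged widely in the wild-type. The median over them of the mean wild-type FPKM, a level per length of transcript and scaled to the total count, was 1.67, beside 2.71 for the other 1058 intact ORs and 2.00 for the 79 intact ORs Olfr871 to Olfr985 of chromosome 9, and 12 of the 28 genes lay above the median of the other intact ORs. A mean of under 10 counts a mouse was found in 8 of the 28 genes (28.6%) and in 11.2% of the other intact ORs. In the wild-type, Olfr835 had the highest FPKM, with 11.8, 14.3 and 7.65 in mice 1 to 3 (11.2 ± 3.3, SD, n = 3). Next came Olfr867 with 10.04 ± 1.95 (SD, n = 3) and Olfr870 with 6.81 ± 1.28 (SD, n = 3), closely followed by Olfr859 with 6.77 ± 1.16 and Olfr847 with 6.54 ± 2.28. The ranges over the 3 mice overlapped between each neighbouring pair in this order. At the other end, Olfr837, Olfr834 and Olfr830 had mean wild-type FPKM values of 0.146, 0.109 and 0.075, and each was at 0 counts in at least 1 wild-type mouse. By counts instead of FPKM, Olfr859 led in all 6 mice. Its annotated transcripts run to 5547 bases, and a long transcript collects more counts at the same FPKM. In RTP1,2DKO, Olfr859 also had the highest mean FPKM of the 28 genes, at 4.92 ± 2.18 (SD, n = 3), beside 2.49 ± 0.44 for Olfr835. In RTP1,2DKO mouse 2, however, Olfr870 was above Olfr859, at an FPKM of 3.13 against 3.00. How much of the lead of Olfr859 in counts came from length was not tested.

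**Figure D1:**
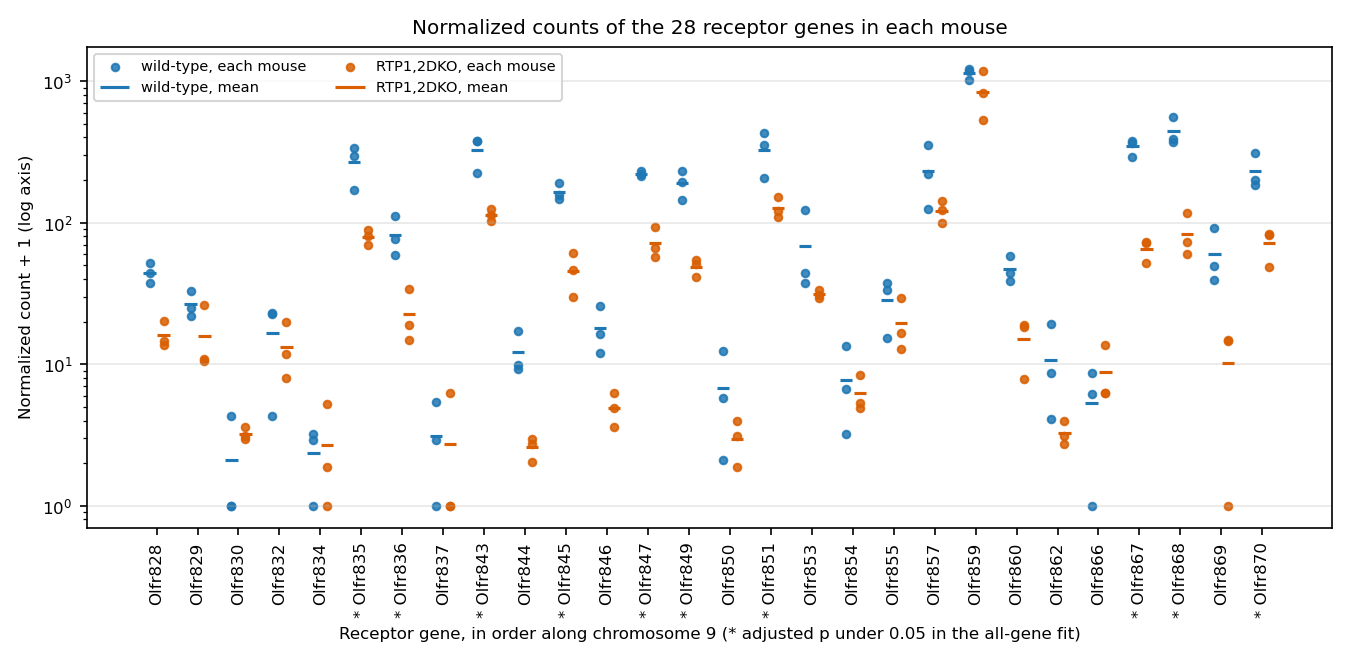
Normalized counts plus 1, on a log axis, of the 28 ORs in order along chromosome 9, with 1 point per mouse and a line at the mean of each group of 3 mice. All RTP1,2DKO points lie below all wild-type points in 17 genes, 10 of which, marked with an asterisk, were past the threshold in the all-gene fit, and Olfr859 stands above the other genes in both groups.

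The counts were first scaled to all genes, which measures each OR's RNA relative to the whole tissue. Of the 28 ORs, 10 fell in RTP1,2DKO mice by edgeR's quasi-likelihood test with Benjamini-Hochberg adjustment over all genes tested. These were Olfr835, Olfr836, Olfr843, Olfr845, Olfr847, Olfr849, Olfr851, Olfr867, Olfr868 and Olfr870. Among intact ORs the same test called 38.3% lower, so the 35.7% found here is close to that background. No gene of the row was called higher by edgeR's quasi-likelihood test, by its exact test or by DESeq2's Wald test, and none had an unadjusted p under 0.05 in that direction, while 4.36% of the intact ORs were called higher. Groups did not overlap, with all RTP1,2DKO mice below all wild-type mice, in 17 of the 28 genes, beside 52.1% of intact ORs. The median log2 fold change was -1.52 for the 28 genes, -1.07 for all other intact ORs and -1.14 for Olfr871 to Olfr985. A negative log2 fold change was found in 25 of the 28 genes (89.3%) and in 71.0% of the other intact ORs, a difference that was not tested.

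The largest falls past the threshold were those of Olfr868 and Olfr867, DRF genes near the end of the row. Olfr868 (chr9:20098626-20104754, forward strand) had 370.3, 557.2 and 392.5 normalized counts in the wild-type mice and 115.9, 71.5 and 58.8 in the RTP1,2DKO mice. All RTP1,2DKO values lay far below the wild-type ones, and the log2 fold change was -2.43 (standard error, SE, 0.26), a 5.38-fold fall (adjusted p = 0.00018, edgeR's quasi-likelihood test). Olfr867 (chr9:20050955-20057562, reverse strand), its neighbour, had 377.6, 366.4 and 292.2 against 71.7, 70.6 and 51.0. Its groups were equally distinct, with a log2 fold change of -2.42 (SE 0.22, adjusted p = 4.8e-05, edgeR's quasi-likelihood test). Although the 2 genes fell alike, their proteins belong to no pair of 80% identity or more, and at least 99.0% of the 31-base words in the transcripts of each occur in no other gene.

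Olfr869 and Olfr870 follow them. Olfr869 (chr9:20129009-20138763, forward strand) had 38.3, 90.6 and 48.5 normalized counts in the wild-type and 13.7, 14.0 and 0.0 in RTP1,2DKO, where the count of 0 allows up to 2.94 normalized counts (a limit of 3 counts, for counting error only). The groups did not overlap, but with an SE of 0.73 its log2 fold change of -2.66 missed the threshold (adjusted p = 0.072, edgeR's quasi-likelihood test). It passed once the replicate number entered the fit as a block, with a log2 fold change of -2.84 (adjusted p = 0.0361). Of the 31-base words of Olfr869, 23.6% also occur in Olfr872, so its own count is uncertain. Summed with Olfr872, the level was 54.8, 180.3 and 86.0 in the wild-type and 28.5, 28.8 and 17.6 in RTP1,2DKO, again without overlap. Olfr870 (chr9:20168533-20174057, reverse strand) had 199.6, 309.1 and 183.0 against 81.1, 82.8 and 48.0. It fell with a log2 fold change of -1.71 (SE 0.28, adjusted p = 0.0033, edgeR's quasi-likelihood test), and 11.5% of its words occur in Olfr871. The fifth gene of this end, Olfr866, was at 5.2, 0.0 and 7.7 against 5.3, 5.2 and 12.7 normalized counts, too few for a moderate change to be detectable.

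Among the DRY genes in the middle of the row, the 8 from Olfr843 to Olfr851 all had negative log2 fold changes, and 5 of them passed the threshold, beside 71.5% of intact ORs with a negative value and 38.3% called lower. This stretch was set apart after its values were seen. Olfr849 (chr9:19440266-19446923, forward strand) had 192.4, 231.8 and 143.3 normalized counts in the wild-type and 53.7, 40.1 and 49.98 in RTP1,2DKO. With the groups well apart, the log2 fold change was -1.98 (SE 0.27, adjusted p = 0.00079, edgeR's quasi-likelihood test). Olfr845 (chr9:19336457-19341718, forward strand) was at 145.9, 189.9 and 155.5 against 60.1, 28.8 and 45.1. It fell by 1.88 on the log2 scale (SE 0.30, adjusted p = 0.0025, edgeR's quasi-likelihood test), again with no overlap. The other 3 that passed, Olfr843, Olfr847 and Olfr851, had log2 fold changes of -1.54, -1.64 and -1.37. Olfr844, Olfr846 and Olfr850, with means of 6.3, 10.4 and 3.8 counts, had values of -2.71, -2.09 and -1.51 that did not pass.

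In the first stretch of the row, Olfr835 and Olfr836 fell. Olfr835 (chr9:19032735-19037670, forward strand) had 294.8, 334.9 and 168.7 normalized counts in the wild-type and 80.1, 68.9 and 87.2 in RTP1,2DKO. The lowest wild-type mouse was still above the highest RTP1,2DKO mouse, and the log2 fold change was -1.76 (SE 0.26, adjusted p = 0.0017, edgeR's quasi-likelihood test). Olfr836 (chr9:19120382-19125938, forward strand) was at 75.5, 109.7 and 58.4 against 17.9, 33.1 and 13.7. Its log2 fold change was -1.90 (SE 0.41, adjusted p = 0.0211, edgeR's quasi-likelihood test). This call was lost without wild-type mouse 2, RTP1,2DKO mouse 1 or RTP1,2DKO mouse 3, when the adjusted p was 0.1071, 0.0777 and 0.0764. Olfr828, Olfr829, Olfr830, Olfr832, Olfr834 and Olfr837 did not pass, and Olfr828 came nearest, with a log2 fold change of -1.50 (adjusted p = 0.0919, edgeR's quasi-likelihood test).

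The pair with the most alike proteins, Olfr832 and Olfr834 (94.6% identity), was little expressed. Olfr832 had 21.7, 21.9 and 3.3 normalized counts in the wild-type and 19.0, 7.0 and 10.8 in RTP1,2DKO, and Olfr834 had at most 4.2 in any mouse. The groups overlapped in both genes, and their log2 fold changes of -0.37 and 0.25 had standard errors of 0.75 and 1.60, so that a change of up to several fold in either direction could not have been seen. In 4 of the 11 pairs of 80% identity or more, both genes had a mean of at least 10 counts. Of these, the most alike, Olfr857 and Olfr859, had log2 fold changes of -0.94 ± 0.32 and -0.44 ± 0.22 (standard error), and Olfr860, at -1.69 ± 0.48, shared 87.7% with Olfr859 and 81.9% with Olfr857. Olfr846 and Olfr847 (84.9% identity) had log2 fold changes of -2.09 ± 0.75 and -1.64 ± 0.24. The differences within pairs were not tested.

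None of the 4 DRW genes passed the threshold in the all-gene fit. Olfr859 (chr9:19804906-19817626, forward strand), named after its values were seen, had 1187.5, 1221.3 and 1025.4 normalized counts in the wild-type and 1172.8, 534.6 and 820.2 in RTP1,2DKO. RTP1,2DKO mouse 1 reached the wild-type range, and the log2 fold change of -0.44 (standard error 0.22) was not past the threshold (adjusted p = 0.4818, edgeR's quasi-likelihood test). Olfr857 was at 218.3, 352.1 and 124.6 against 122.2, 140.4 and 99.0, also with overlap and with a log2 fold change of -0.94 (standard error 0.32). Without wild-type mouse 3, Olfr857 passed the threshold. Olfr860 had 56.9, 42.9 and 37.5 against 17.9, 17.4 and 6.9 and did not overlap, with a log2 fold change of -1.69 (adjusted p = 0.0855, edgeR's quasi-likelihood test). DESeq2's Wald test and edgeR's exact test called it lower. Olfr862 was low, with 3.1, 18.1 and 7.7 against 2.1, 1.7 and 2.9. Of the 31-base words of Olfr857, 26.2% occur in Olfr859, so the split of reads between them is uncertain. Of the words of Olfr859, 85.1% occur in no other gene and 9.4% occur in Olfr58. Of those of Olfr860, 77.8% occur in no other gene. The sum of Olfr857, Olfr859 and Olfr860 was 1462.7, 1616.3 and 1187.4 normalized counts in the wild-type and 1313.0, 692.4 and 926.1 in RTP1,2DKO, which overlapped. Words shared with genes outside this sum, such as Olfr58, leave it uncertain too.

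Over the 4 DRW genes the summed level was 1431.8 ± 221.6 normalized counts (SD, n = 3) in the wild-type and 979.4 ± 313.5 in RTP1,2DKO, with overlap. Over the 16 DRY genes it was 1702.1 ± 395.7 against 577.3 ± 79.2, and over the 8 DRF genes 1177.7 ± 247.0 against 269.6 ± 68.2, with no overlap in either. Of the 16 DRY genes 6 fell, and of the 8 DRF genes 4, beside 38.3% of intact ORs. The median log2 fold changes of the DRY, DRF and DRW genes were -1.50, -1.80 and -1.32, so the median DRW gene was close to the others and the sum of that kind followed Olfr859. The kinds were compared after their values were known, and their difference was not tested.

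**Figure D2:**
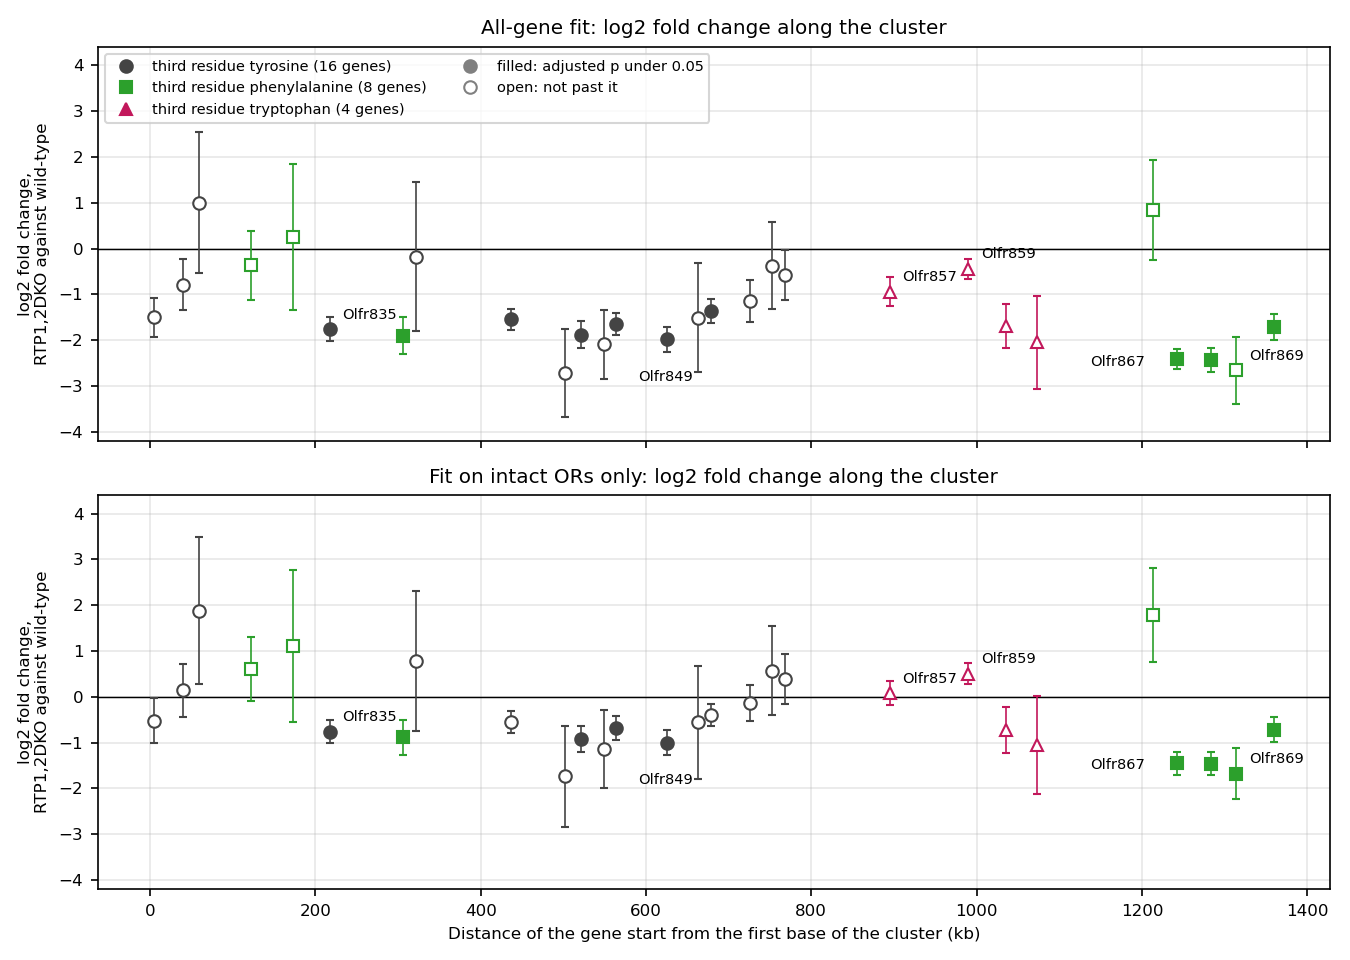
Log2 fold change (RTP1,2DKO against wild-type, vertical axis, with bars of 1 standard error) of the 28 ORs by distance from the first base of the cluster in kb, in the all-gene fit (top) and in the fit on intact ORs only (bottom). Shapes and colours give the third residue of the motif, and filled symbols have an adjusted p under 0.05. Olfr867 and Olfr868 are the lowest filled symbols in the top panel, at -2.42 and -2.43, and Olfr859 is at -0.44 in the top panel and at 0.50 in the bottom one, a sign that turned to -0.28 with scaling to total OR counts.

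Across the row, the log2 fold change and the position had a Pearson correlation of -0.32 and a Spearman correlation of -0.33 (n = 28 genes), and -0.39 and -0.32 over the 20 genes whose mean reached 10 counts. The log2 fold change and the log2 wild-type FPKM had correlations of -0.63 and -0.50 over the 28 genes and -0.40 and -0.31 over the 20. These points share the same 6 libraries, and the wild-type level also enters the fold change, so they only describe the row.

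The level of the 28 ORs relative to all intact ORs depended on how the libraries were scaled. As a share of the total count on intact ORs it was 1.379%, 1.421% and 1.108% in the wild-type mice and 0.764%, 0.572% and 0.548% in the RTP1,2DKO mice, with no overlap between the groups (1.30 ± 0.17% against 0.628 ± 0.118%, SD, n = 3 each). The median intact OR also fell relative to the total count on intact ORs. With libraries scaled to that total, the median log2 fold change was -0.89 for intact ORs and -1.34 for the 28 genes. The share of all counts on intact ORs was 0.955 ± 0.154% and 0.818 ± 0.101%. Olfr859 alone made up 26.8%, 24.1% and 29.9% of the counts of the 28 genes in the wild-type and 50.8%, 35.7% and 49.1% in RTP1,2DKO. Its own share of intact OR counts overlapped between the groups, at 0.348 ± 0.020% and 0.287 ± 0.093% (SD, n = 3). The remaining 27 genes held 0.955 ± 0.158% and 0.341 ± 0.054%, a ratio of 2.80, without overlap. With size factors computed over intact ORs instead, the sum of the 28 genes was 2986 ± 257 normalized counts in the wild-type and 2474 ± 330 in RTP1,2DKO (SD, n = 3), a ratio of 1.21, and the groups overlapped. On that scale the 27 genes without Olfr859 summed to 2186.5 ± 266.1 and 1341.1 ± 95.7, a ratio of 1.63, with no overlap.

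**Figure D3:**
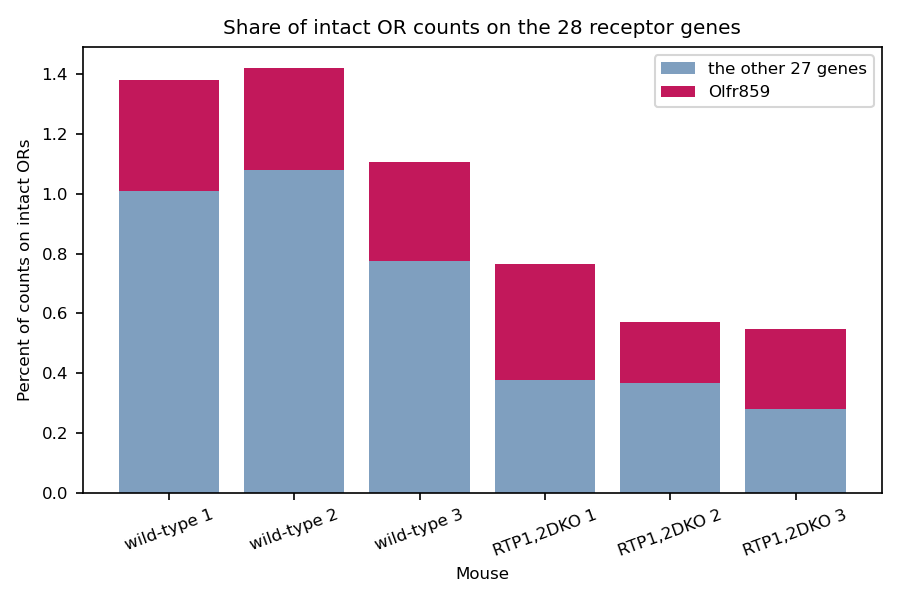
Percent of the counts on intact ORs that fell on Olfr859 and on the other 27 ORs of the row, as stacked bars with 1 bar per mouse. The part of the other 27 genes is 0.777% or more in each wild-type mouse and 0.376% or less in each RTP1,2DKO mouse, and that of Olfr859 ranges from 0.205% to 0.388%.

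Since markers of mature OSNs also fell, the counts were set beside them in the same mouse, a comparison chosen after the values were seen. Per 1000 counts on the 11 mature OSN genes, all 28 ORs had 21.6, 25.5 and 19.3 counts in the wild-type and 25.1, 15.0 and 17.7 in RTP1,2DKO, which overlapped. Without Olfr859, set apart after its values were seen, the 27 ORs had 15.8, 19.3 and 13.5 counts in the wild-type and 12.3, 9.67 and 9.01 in RTP1,2DKO, which did not overlap. Olfr859 had 5.78, 6.14 and 5.75 against 12.7, 5.38 and 8.69, which did. Per 1000 counts of Omp, the olfactory marker protein gene of mature OSNs, all 28 ORs had 67.2 ± 16.7 against 55.5 ± 24.3 (SD, n = 3) and the 27 ORs had 48.2, 64.2 and 35.9 against 41.2, 26.2 and 21.5, and the groups overlapped in both.

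A further scaling to intact ORs only asks which ORs are over- or underrepresented among the OR transcripts that remain. The study's methods name DESeq for the size factors of its libraries, but its text does not say how this scaling to ORs was computed. The calls differed between size factors and the total OR count. The study counted more intact ORs as under- than as overrepresented. The same order was found here with the total OR count, and the opposite one with size factors. The study's shares of intact ORs in each direction also lay nearer to those found with the total OR count, given below. With size factors and adjustment over the 1078 intact ORs tested, 9 of the 28 genes were underrepresented in RTP1,2DKO mice (edgeR's quasi-likelihood test with Benjamini-Hochberg adjustment), beside 25.9% of intact ORs. They were Olfr835, Olfr836, Olfr845, Olfr847, Olfr849, Olfr867, Olfr868, Olfr869 and Olfr870, of which 8 also fell in the all-gene fit. None of the 28 was overrepresented by this test, beside 29.1% of intact ORs, with 1 gene, Olfr859, at an unadjusted p under 0.05 in that direction. DESeq2's Wald test called Olfr859 overrepresented. The median log2 fold change was -0.55 for the 28 genes, -0.11 for the other intact ORs and -0.20 for Olfr871 to Olfr985, where 33.8% of the genes tested were called under- and 22.1% overrepresented. With libraries scaled to their total OR count instead, 17 of the 28 genes were called underrepresented and none overrepresented by the same test, beside 47.9% and 16.4% of intact ORs. That scaling moved the median intact OR from -0.11 to -0.89, and the median of the 28 genes was -1.34.

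On this scale Olfr869 had 26.9, 56.3 and 38.0 normalized counts in the wild-type and 16.8, 20.3 and 0.0 in RTP1,2DKO. The groups did not overlap, and the log2 fold change was -1.68 (SE 0.56, adjusted p = 0.0092, edgeR's quasi-likelihood test). Without wild-type mouse 2 or without RTP1,2DKO mouse 3 the adjusted p was 0.0836 and 0.0664. Olfr868 was at 260.6, 346.1 and 307.5 against 141.9, 104.0 and 85.0, and Olfr867 at 265.7, 227.6 and 228.9 against 87.7, 102.8 and 73.6. Both were clearly separated, with log2 fold changes of -1.46 and -1.45 (standard error 0.25 each) and adjusted p-values of 1.7e-06 and 2.9e-06 by edgeR's quasi-likelihood test. They passed with any single mouse left out. The other 6 had smaller changes, the largest in Olfr849, at 130.6 ± 16.4 against 65.5 ± 6.9 normalized counts (SD, n = 3), and the smallest in Olfr847, with a log2 fold change of -0.68. Olfr849 also passed with any single mouse left out. Olfr836, whose adjusted p was 0.0499 by edgeR's quasi-likelihood test, overlapped between the groups. With single mice left out it passed in 1 of 6 fits, and its adjusted p reached 0.1981 by the same test. DESeq2's Wald test did not call it (adjusted p = 0.0857).

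Olfr859 had a positive log2 fold change on this scale, which did not pass the threshold. It had 835.6, 758.5 and 803.4 normalized counts in the wild-type and 1435.8, 777.8 and 1185.4 in RTP1,2DKO. RTP1,2DKO mouse 2 lay inside the wild-type range while the other two lay above it, and the log2 fold change of 0.50 (standard error 0.23) missed the threshold (adjusted p = 0.0532, edgeR's quasi-likelihood test). It passed with the replicate number as a block (0.46, adjusted p = 0.0069) and without RTP1,2DKO mouse 2 (0.74, adjusted p = 0.0046). Its sign depended on the scaling, since it was -0.28 once libraries were scaled to total OR counts. Olfr843, at -0.55, also sat at the threshold (adjusted p = 0.0505, edgeR's quasi-likelihood test), and passed with the block (adjusted p = 0.0334).

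**Figure D4:**
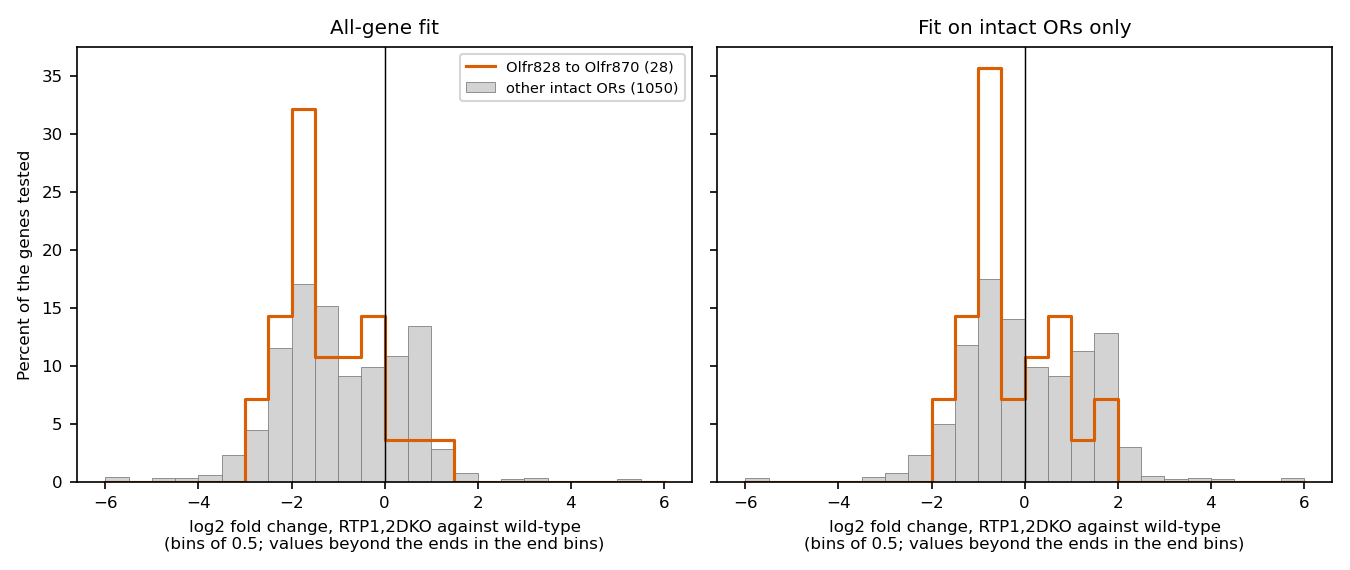
Percent of genes tested by log2 fold change in bins of 0.5 (RTP1,2DKO against wild-type), for the 1050 other intact ORs tested (grey bars) and the 28 ORs Olfr828 to Olfr870 (line), in the all-gene fit (left) and the fit on intact ORs only (right). The other ORs spread to both sides of 0, with medians of -1.07 and -0.11, and the 28 genes have medians of -1.52 and -0.55.

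The genes not past either threshold were of 2 sorts. Olfr830, Olfr834, Olfr837, Olfr844, Olfr850, Olfr854, Olfr862 and Olfr866 had a mean of under 10 counts a mouse, and their summed level was 42.2 ± 5.8 normalized counts in the wild-type and 24.5 ± 1.9 in RTP1,2DKO (SD, n = 3). Their log2 fold changes ranged from -2.71 to 1.00 in the all-gene fit, and changes of single genes were not detectable at this depth. The 3 positive values of the row, 1.00 for Olfr830, 0.25 for Olfr834 and 0.85 for Olfr866, belong to them. Better measured genes without a call in either fit were Olfr828, Olfr829, Olfr832, Olfr846, Olfr853, Olfr855, Olfr857, Olfr859 and Olfr860. Of these, Olfr855 and Olfr829 had log2 fold changes of -0.58 and -0.79 and overlapped between groups, and Olfr853 had -1.15 (adjusted p = 0.3069, edgeR's quasi-likelihood test), with 43.4, 121.2 and 36.4 normalized counts against 32.7, 29.7 and 28.4.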

How the data were processed

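RNA of whole olfactory mucosa (3 wild-type mice, 3 RTP1,2DKO mice) was sequenced with a stranded kit. The authors ran kallisto and deposited estimated counts and TPM for each transcript with its length. The submitters' processing notes name mm10, and the version of kallisto is not given in the sources used here. The deposited TPM were not used.

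Estimated counts were summed by gene over transcripts (55 for the 28 ORs) and rounded, which yields 24661 genes and 31125410 to 41636996 counts a mouse. FPKM were computed from estimated counts, effective lengths and total counts. The limit given for a count of 0 covers counting error only. Standard errors of log2 fold changes were derived from the F statistic of edgeR's quasi-likelihood test, which also reflects spread between mice. Groups and replicate numbers came from the sample labels. Genes counted at least once were fitted on genotype with edgeR 4.0.16 (quasi-likelihood test), size factors by median of ratios (DESeq2 1.42.0) and Benjamini-Hochberg adjustment at 0.05, in R 4.3.3, once over all genes and once over intact ORs. Both fits were tested on simulated counts with as many raised as lowered genes, which does not test the choice of scaling. Tables were made with Python 3.11.15, pandas 2.3.3, numpy 2.4.6 and scipy 1.17.1.

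Same-numbered mice of the 2 groups had weakly correlated deviations from their group means (r = 0.14, 0.177 and 0.101 over 18156 genes). Over 960 intact ORs the values were 0.186, 0.12 and 0.011. Mice of unlike number had r from -0.217 to 0.09 over the 18156 genes and from -0.152 to 0.022 over the intact ORs. The methods call the mice littermates without saying which, so the number was also used as a block. That mice of the same number were littermates is an assumption. Other alternatives were TMM, a filter on low counts, DESeq2's Wald and edgeR's exact test, scaling to total OR counts, OR genes with -ps names, and leaving out each mouse.

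Positions, coding sequences, protein identity (Biopython 1.88, alignment of translated coding sequences) and 31-base words came from GENCODE M21 (GRCm38), where all 28 genes were matched by symbol. Promoters were not compared, since in 15 of the 24 genes with a RefSeq window the start is the first coding base. Named genes were the 3 with the highest wild-type FPKM, the 5 largest decreases past the threshold with a mean of at least 10 counts, any increase past it, the 3 largest changes each way past the threshold within ORs, genes with opposite calls, and the most alike pair. The genes and lists were chosen with earlier results of these data known.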

Additional observations from a re-analysis of the deposited data

How the results depend on the processing

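In the all-gene fit, the number of the 28 ORs called lower was 10 and lay between 9 and 13 over all alternatives (9 to 11 with single mice left out), and none was called higher in any of them. In the fit on intact ORs, the count of 9 underrepresented genes was 17 with each library scaled to its total OR count and 14 with that total taken without the 3 most abundant ORs, and 5 to 8 with single mice left out. It was 5 without wild-type mouse 2, which lost Olfr835, Olfr836, Olfr869 and Olfr870, and 5 without RTP1,2DKO mouse 3, which lost Olfr836, Olfr847, Olfr869 and Olfr870. The count of overrepresented genes, 0, became 1 under the replicate block, under the low-count filter and under DESeq2's Wald test, and was 0 to 1 with single mice left out, the 1 being Olfr859 each time. The difference in the share of intact OR counts, -0.675 percentage points, ranged from -0.772 to -0.616 with single mice left out and was -0.827 without the 3 most abundant ORs in the denominator.

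The fit with the replicate block called 11 of the 28 lower over all genes, the 10 of the unblocked fit and Olfr869. Within ORs it called 10 under- and 1 overrepresented, and beyond Olfr843, Olfr859 and Olfr869 it changed no other call of these genes. Over all genes it called 816 lower and 196 higher, where the unblocked fit called 697 and 102. The log2 fold change of Olfr834 turned from 0.25 to -0.01 with the block, and with single mice left out ranged from -1.37 to 0.80, with -0.29 without wild-type mouse 1 and -1.37 without RTP1,2DKO mouse 1. Within ORs it ranged from -0.45 to 1.66. Scaled to total OR counts with and without the 3 most abundant ORs, Olfr832 turned from 0.61 to -0.18 and -0.05, and Olfr859 from 0.50 to -0.28 and -0.15. A change of scaling shifts the fold changes of all ORs by about the same amount. Here the median intact OR moved from -0.11 to -0.89 and -0.76. The cause of the other changes was not tested. Depth limits the 8 genes with a mean of under 10 counts.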
